A study of Homo sapiens with 12 samples.

Results

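The genes described here form the interferon, RNA sensing and antigen presentation module, a list of 42 genes given by name. A probe set assigned to 1 gene measured 38 of them, out of 18404 genes measured in this way on the array. GBP1 and HLA-F were covered only by probe sets that also hit other genes and were left out, and the remaining 2 are not analysed here. Affymetrix Human Gene 1.0 ST arrays, which carry probes along the whole transcript, were run on 2 human embryonal carcinoma cell lines, NTera-2 (pluripotent) and 2102Ep (described as nullipotent). These lines are the malignant stem cell component of germ cell tumours, and an siRNA against the pluripotency factor SOX2 (siSOX2) was used to ask what depends on it. There were 3 arrays in each of 4 groups: NTera-2 with siSOX2, NTera-2 with a non-targeting control siRNA, 2102Ep with siSOX2 and 2102Ep with the control siRNA. Cells were transfected for 6 hours and RNA was taken after a further 72 hours of incubation. The labels call the replicates biological but do not tie them to separate passages.

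Several features of the design bear directly on this module. Every array came from cells that had received a synthetic double-stranded RNA with a transfection lipid, so a response common to siSOX2 and the control siRNA cannot be seen. Untransfected and lipid-only cells are not analysed here. The lipid and the siRNA amount differed between the lines, so line and transfection reagent cannot be told apart in any comparison of NTera-2 with 2102Ep. A single SOX2 siRNA was used, each line is 1 cell line, and no rescue was made.

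Interferons are secreted proteins that alert cells to viral infection. Foreign RNA is recognised by TLR3 in endosomes, by IFIH1 (MDA5) in the cytoplasm and by the kinase EIF2AK2 (PKR), and the sensors switch on interferon genes through IRF3 and IRF7. Secreted interferon acts through its receptor on factors that contain IRF9, which bind interferon-stimulated response elements (ISREs) in the promoters of a large set of antiviral genes. The same system raises the peptide loading machinery of MHC class I, in which immunoproteasome subunits cut peptides, TAP1 and TAP2 carry them into the endoplasmic reticulum, TAPBP helps to load them and B2M is the light chain. Undifferentiated pluripotent and embryonal carcinoma cells are known for a weak interferon response, while some antiviral genes, IFITM1 and IFITM3 among them, are expressed in such cells without interferon.

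The values are log2 signals, so a difference of 1 is a 2-fold change. Signals of different genes depend on their probes and were not compared with each other. SOX2 was 11.92, 11.95 and 11.86 in NTera-2 with siSOX2, against 12.51, 12.52 and 12.63 in NTera-2 control cells, and 9.17, 9.30 and 8.80 in 2102Ep with siSOX2, against 12.28, 12.21 and 12.20 in 2102Ep control cells. The array signal remaining was 64.0% in NTera-2 (95% interval 53.9 to 75.9) and 11.4% in 2102Ep (9.59 to 13.5), so more SOX2 mRNA signal was left in NTera-2. SOX2 protein was not measured in these data. Array medians ran from 7.433 to 7.583, and arrays of 1 group correlated at 0.9825 to 0.9943. Of 12 markers of undifferentiated embryonal carcinoma, 10 were measured. LIN28A (12.42 to 13.20), SALL4 (10.59 to 11.52) and DNMT3B (11.28 to 12.10) had signals in these ranges over the 12 arrays, while ZFP42 averaged 5.66 in NTera-2 control cells and 9.80 in 2102Ep control cells. Under siSOX2, 4 of the 10 markers were lower in NTera-2 and 6 in 2102Ep at an adjusted p of 0.05 or less, where 1.98% and 5.90% of all genes were lower, and TERF1 was called in 2102Ep (-1.02). In bulk RNA, fewer cells expressing a gene and less RNA per cell cannot be told apart.

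The ISRE links most of these genes, so the promoters were searched for it first. RefSeq promoter windows (GRCh38.p14, 250 bases before to 50 bases after the gene start) were available for 29 of the 38 measured members. The ISRE core was taken as GAAANNGAAA, or TTTCNNTTTC on the other strand, where N is any base and overlapping matches were allowed. It was present in 21 of the 29 windows, against 3.65% of 27305 windows of all genes. The list was assembled from interferon-stimulated genes, so this describes the list. The core of the element bound after interferon-gamma signalling (GAS, TTCNNNGAA, a pattern that is its own reverse complement) was present in 7 of the 29, among them IRF1 and IRF9, against 7.88% of all windows. The stretches below carry the ISRE cores, in capitals, of members whose levels are followed through the results. Each is read 5′ to 3′ on the strand of its gene.
IFIT1 (chr10:89392497-89392539, plus strand): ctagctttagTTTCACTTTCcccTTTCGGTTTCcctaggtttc
BST2 (chr19:17405735-17405770, minus strand): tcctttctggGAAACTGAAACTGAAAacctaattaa
TAP1 (chr6:32853813-32853848, minus strand): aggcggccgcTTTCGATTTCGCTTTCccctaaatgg
IFITM1 (chr11:313990-314053, plus strand): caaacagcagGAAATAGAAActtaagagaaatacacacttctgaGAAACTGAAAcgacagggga
ISG15 (chr1:1013374-1013409, plus strand): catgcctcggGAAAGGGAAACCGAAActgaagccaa
MX1 (chr21:41420559-41420588, plus strand): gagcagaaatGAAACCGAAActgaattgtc
In BST2, TAP1 and ISG15 the cores overlap, in IFIT1 a pair of separate cores stands within a short stretch, and the single core of MX1 lies after the gene start. The windows of TAP1 and PSMB9 overlap and run in opposite directions, since these genes start close to each other. TRIM22 and MX2 had no entry. SAMHD1, whose level was called lower in both lines under siSOX2, had no ISRE core and no GAS core in its window, which is shown whole for that reason. The windows of IFI16, PSMB8 and PSMB9 also held neither core. The absence of these letters from 300 bases says nothing about the factor or about sequence further away.
SAMHD1 (chr20:36951659-36951958, minus strand): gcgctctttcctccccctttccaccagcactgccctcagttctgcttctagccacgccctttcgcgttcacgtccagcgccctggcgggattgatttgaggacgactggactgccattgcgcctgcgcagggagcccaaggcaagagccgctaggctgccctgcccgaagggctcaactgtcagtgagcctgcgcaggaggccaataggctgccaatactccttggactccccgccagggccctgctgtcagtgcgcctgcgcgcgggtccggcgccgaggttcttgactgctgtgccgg

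**Figure D1:**
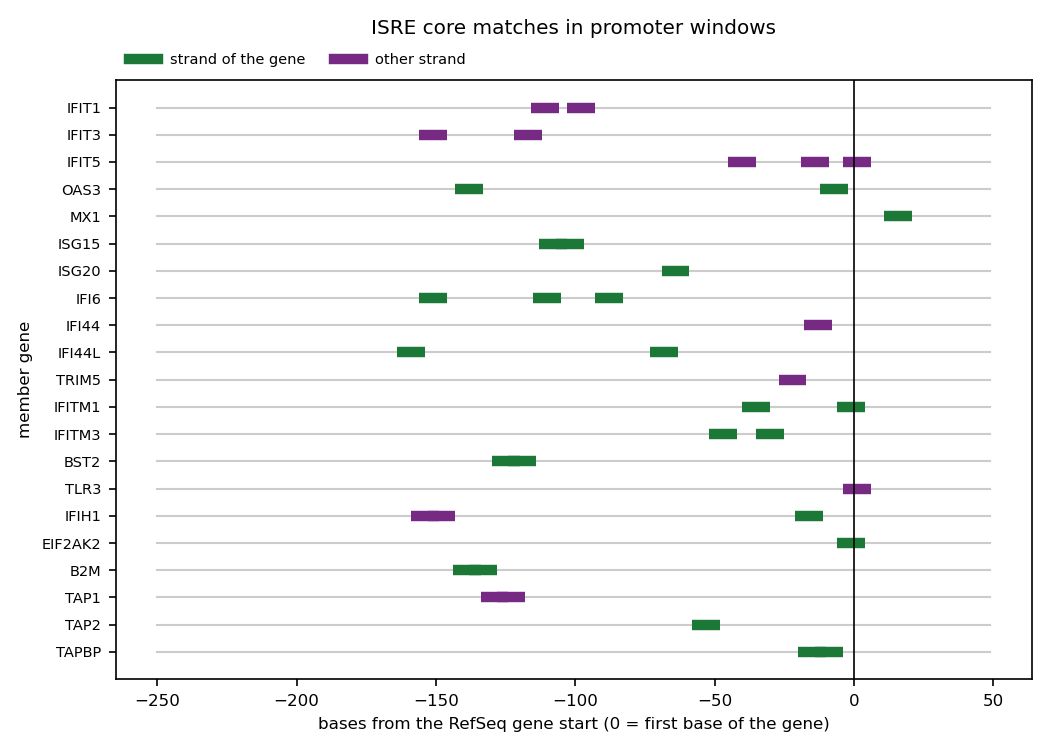
Positions of ISRE core matches in the RefSeq promoter windows of the 21 members that hold one, as bases from the gene start on the horizontal axis and 1 gene a row (green, strand of the gene; purple, other strand; grey, the window searched). All matches lie between positions -164 and 20, and the match of MX1 lies wholly after the gene start.

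Across the 12 arrays the called members fell into a line pattern and an siRNA pattern. Array by array, IFIT1, IFI16 and TAP1 separated the lines in one direction and MX2 and BST2 in the other, and SAMHD1 and TRIM22 separated siSOX2 from control cells.

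**Figure D2:**
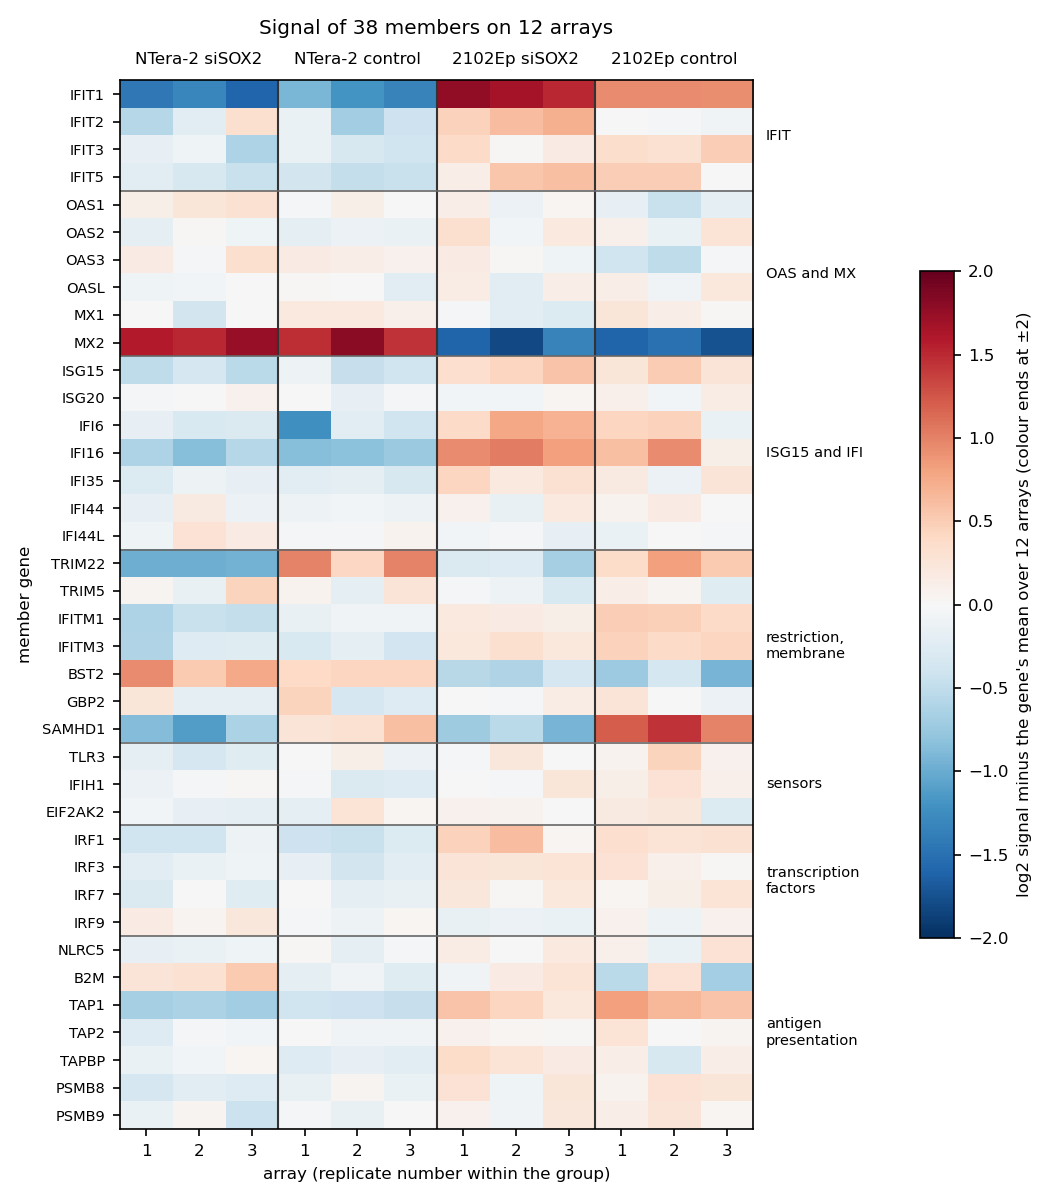
Signal of each of the 38 measured members (rows, by role) on each of the 12 arrays (columns, by group), as log2 signal minus the gene's mean over the 12 arrays. MX2 is above its mean on all 6 NTera-2 arrays, IFIT1 on all 6 2102Ep arrays, and SAMHD1 and TRIM22 on the control arrays of either line.

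The first question was whether the SOX2 siRNA changed the module when set against the control siRNA. Among the 38 members, SAMHD1 and TRIM22 fell in both lines by the adjusted p, IFITM1 fell in NTera-2, and IFIT1 and IFIT2 rose in 2102Ep. The changes of 2-fold or more were those of SAMHD1 in both lines and of TRIM22 in NTera-2. Calls rest on limma's moderated fit over all 18404 genes and needed an adjusted p (Benjamini-Hochberg) no greater than 0.05, an unadjusted p no greater than 0.01 and a change of 2-fold or more. In NTera-2, 0 members were called higher and 2 lower (SAMHD1 and TRIM22), where 0.310% and 0.348% of all genes were called higher and lower. In 2102Ep, 0 were called higher and 1 lower (SAMHD1), where 1.15% and 0.826% of all genes were called. By the adjusted p alone, 0 members were higher and 3 lower in NTera-2 (background 2.96% and 1.98% of all genes), and 2 higher and 2 lower in 2102Ep (6.76% and 5.90%). At an unadjusted p of 0.05 or less there were 9 members in NTera-2 and 12 in 2102Ep, where 14.8% and 22.9% of all genes stood. The median log2 change over the members was 0.032 in NTera-2 and 0.007 in 2102Ep, beside 0.0425 and -0.0104 over all genes.

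SAMHD1 is a dNTP triphosphohydrolase that starves retroviruses of nucleotides. Its signal was 8.08, 7.83 and 8.31 in NTera-2 with siSOX2, against 9.20, 9.25 and 9.54 in NTera-2 control cells. In 2102Ep it was 8.23, 8.40 and 8.02 with siSOX2, against 10.16, 10.39 and 9.93 with the control siRNA. In each line every siSOX2 array was lower than every control array. The log2 change was -1.25 (SE 0.148, 2.39-fold, limma adjusted p = 3.83e-05) in NTera-2 and -1.94 (SE 0.148, 3.85-fold, adjusted p = 5.46e-08) in 2102Ep. The siSOX2 cells of both lines ended at similar signals, with means of 8.07 and 8.22, whereas the control means were 9.33 in NTera-2 and 10.16 in 2102Ep. The 2 responses differed by 0.69 (95% interval 0.25 to 1.13, adjusted p = 0.0713), which did not pass. That difference passed after quantile normalization was repeated (0.71, adjusted p = 0.0418), without 2102Ep control replicate 3 (0.80, 0.0267) and without NTera-2 siSOX2 replicate 2 (0.81, 0.0345).

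TRIM22, an E3 ubiquitin ligase that restricts several viruses, was 6.03, 6.04 and 6.07 in NTera-2 with siSOX2, against 8.01, 7.42 and 8.01 in NTera-2 control cells. In 2102Ep it was 6.72, 6.76 and 6.35 with siSOX2, against 7.38, 7.83 and 7.53 with the control siRNA. Again no siSOX2 array reached a control array of its line, and the NTera-2 siSOX2 arrays lay almost on top of each other (SD 0.02). The log2 change was -1.76 (SE 0.158, 3.40-fold, limma adjusted p = 1.86e-06) in NTera-2 and -0.97 (SE 0.158, 1.96-fold, adjusted p = 0.000331) in 2102Ep. The value in 2102Ep fell just short of 2-fold and crossed it without 2102Ep control replicate 1 (-1.07), siSOX2 replicate 1 (-1.03) or siSOX2 replicate 2 (-1.05). Its neighbour TRIM5, a capsid-binding restriction factor with an ISRE core in its window, had log2 changes of 0.07 in NTera-2 and -0.13 in 2102Ep (adjusted p of 0.906 and 0.724).

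IFIT1, which binds foreign RNA by its unmethylated cap, was 8.44, 8.34 and 8.17 in 2102Ep with siSOX2, against 7.62, 7.62 and 7.60 in 2102Ep control cells. All siSOX2 arrays lay above all control arrays, and the log2 change was 0.71 (SE 0.120, 1.63-fold, limma adjusted p = 0.000472). In NTera-2 its signal was 5.24, 5.36 and 5.08 with siSOX2, against 5.75, 5.47 and 5.33 with the control siRNA, where the groups overlapped (-0.29, adjusted p = 0.247). The 2 responses differed by -0.99 (95% interval -1.35 to -0.64, adjusted p = 0.00136). Every NTera-2 signal of IFIT1 lay below 6.73, the lower quartile of the gene means, and no detection call is given. How far a floor limits the NTera-2 values of IFIT1 was not tested. IFIT2, its neighbour and partner, ranged from 5.81 to 6.05 in 2102Ep with siSOX2 and from 5.28 to 5.35 in 2102Ep control cells (0.63, adjusted p = 0.024). That pass held in 13 of 19 alternatives and was lost without any 1 of the 3 control arrays (adjusted p of 0.051, 0.0533 and 0.0519) and without siSOX2 replicate 2 (0.0753) or 3 (0.0962), and when all probe sets were adjusted together (0.0997). Those alternatives include fits without an NTera-2 array, which leave the 2102Ep log2 change itself as it was. The other measured members of the family did not follow: IFIT3 had log2 changes of -0.01 in NTera-2 and -0.19 in 2102Ep, and IFIT5 of 0.10 and 0.11, none of which passed.

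**Figure D3:**
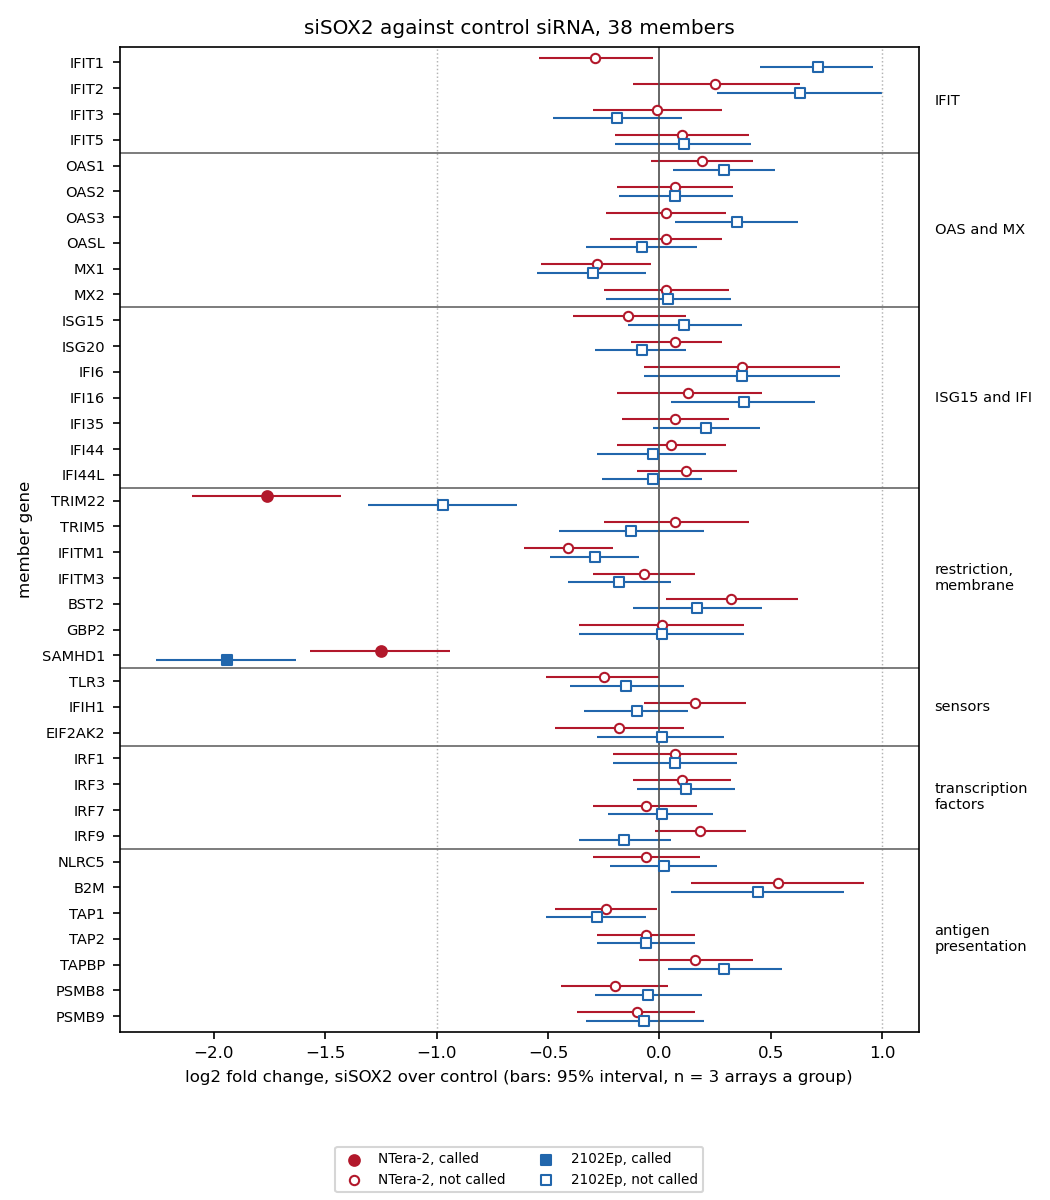
Log2 fold change of siSOX2 over control siRNA (horizontal axis, with 95% intervals, 3 arrays a group) for the 38 measured members by role, in NTera-2 (red circles) and 2102Ep (blue squares), with filled symbols for called members. SAMHD1 and TRIM22 stand to the left in both lines, at -1.25 and -1.76 in NTera-2 and -1.94 and -0.97 in 2102Ep, and IFIT1 at 0.71 in 2102Ep.

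The classical interferon readouts among the effectors gave no calls. ISG15, a ubiquitin-like modifier, was 7.13, 7.30 and 7.10 in NTera-2 with siSOX2, against 7.54, 7.17 and 7.23 in NTera-2 control cells, and 7.97, 8.06 and 8.21 in 2102Ep with siSOX2, against 7.88, 8.14 and 7.89 in 2102Ep control cells. The groups overlapped in either line (-0.14 and 0.11, adjusted p of 0.711 and 0.675). MX1, a GTPase that blocks viral nucleoproteins, was 6.73, 6.38 and 6.75 in NTera-2 with siSOX2, against 6.94, 6.94 and 6.84 in NTera-2 control cells, and 6.72, 6.54 and 6.47 in 2102Ep with siSOX2, against 6.98, 6.87 and 6.77 in 2102Ep control cells. All siSOX2 arrays were the lower ones in each line, but the changes were small (-0.28 and -0.30) and did not pass over all genes (adjusted p of 0.241 and 0.114). OAS1, an oligoadenylate synthetase activated by double-stranded RNA, was 7.55, 7.68 and 7.74 in NTera-2 with siSOX2, against 7.42, 7.55 and 7.43 in NTera-2 control cells, and 7.57, 7.32 and 7.47 in 2102Ep with siSOX2, against 7.27, 6.99 and 7.25 in 2102Ep control cells. Its changes of 0.19 and 0.29 did not pass either (adjusted p of 0.477 and 0.108), though siSOX2 arrays were the higher ones in each line. In NTera-2 this was narrow, since the closest arrays were both 7.55 after rounding. After quantile normalization was repeated, OAS1 (0.31, adjusted p = 0.0392) and OAS3 (0.37, 0.0388) passed in 2102Ep.

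Several other effectors had wider intervals. IFI6 changed by 0.37 in each line (95% interval -0.07 to 0.81 in both). IFI16 changed by 0.38 in 2102Ep (adjusted p = 0.144), and by 0.57 with a pass (0.0105) without 2102Ep control replicate 2. OAS3 changed by 0.35 in 2102Ep (adjusted p = 0.098), and by 0.49 with a pass (0.0102) without 2102Ep control replicate 3. BST2 changed by 0.32 in NTera-2 with no overlap of arrays (adjusted p = 0.272). IFITM1, a membrane protein that blocks viral fusion, was 12.08 to 12.26 in NTera-2 with siSOX2 and 12.55 to 12.63 in NTera-2 control cells (-0.41, SE 0.0942, adjusted p = 0.0149), and this was lost without NTera-2 control replicate 2 (adjusted p = 0.0629) or 3 (0.0841) or siSOX2 replicate 1 (0.0927). In 2102Ep its change was -0.29 (adjusted p = 0.0524), and it passed under the trend and robust options (0.0209) and without dim genes (0.0317). IFITM3 is a close paralog whose probes may share transcripts with it, so the pair is not fully independent, and its changes were -0.07 and -0.18. The dim effectors IFI44 (3.74 to 4.09 over the 12 arrays), GBP2 (4.38 to 5.15) and IFI44L (4.94 to 5.39) varied little with line or siRNA, and no detection call is given with the values. GBP2 had another, dimmer probe set that was not used. Under siSOX2 that set changed by 0.18 in NTera-2 and 0.2 in 2102Ep. Between the lines it differed by -0.35 with siSOX2 and -0.33 with the control siRNA.

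Among the sensors, TLR3 was 6.89, 6.73 and 6.82 in NTera-2 with siSOX2, against 7.08, 7.18 and 6.95 in NTera-2 control cells, and 7.03, 7.29 and 7.06 in 2102Ep with siSOX2, against 7.14, 7.52 and 7.15 in 2102Ep control cells. IFIH1 was 4.26, 4.33 and 4.40 in NTera-2 with siSOX2, against 4.33, 4.08 and 4.11 in NTera-2 control cells, and 4.38, 4.34 and 4.61 in 2102Ep with siSOX2, against 4.49, 4.67 and 4.48 in 2102Ep control cells. EIF2AK2 was 9.38, 9.26 and 9.23 in NTera-2 with siSOX2, against 9.23, 9.70 and 9.47 in NTera-2 control cells, and 9.51, 9.50 and 9.44 in 2102Ep with siSOX2, against 9.61, 9.66 and 9.16 in 2102Ep control cells. The groups overlapped in each line for IFIH1 and EIF2AK2, and for TLR3 only in 2102Ep, and the 3 sensors changed by -0.25 to 0.16, none past the test. IFIH1 was dim on all arrays (4.08 to 4.67), with no detection call. Of the transcription factors, IRF9, the DNA-binding subunit of the complex formed after type I interferon, was 7.50, 7.40 and 7.56 in NTera-2 with siSOX2, against 7.30, 7.24 and 7.38 in NTera-2 control cells, and 7.19, 7.22 and 7.21 in 2102Ep with siSOX2, against 7.43, 7.24 and 7.42 in 2102Ep control cells. Its arrays separated upwards in NTera-2 (0.18) and downwards in 2102Ep (-0.16), and the difference between these responses, 0.34, did not pass (adjusted p = 0.226). IRF1, IRF3 and IRF7 changed by -0.06 to 0.12.

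In antigen presentation, B2M was 9.62, 9.67 and 9.88 in NTera-2 with siSOX2, against 9.17, 9.29 and 9.12 in NTera-2 control cells, and 9.30, 9.53 and 9.63 in 2102Ep with siSOX2, against 8.82, 9.65 and 8.68 in 2102Ep control cells. Its log2 change of 0.53 in NTera-2, with no overlap, and of 0.44 in 2102Ep, with overlap, did not pass (adjusted p of 0.134 and 0.150). The array of 2102Ep control replicate 2 stood apart at 9.65, and without it B2M passed in 2102Ep (0.74, adjusted p = 0.000591). It then also passed in NTera-2 (adjusted p = 0.00741), where the log2 change stayed at 0.53 and only the spread shared by the groups differed. With only the compared groups fitted, B2M passed in NTera-2 (0.53, adjusted p = 0.00862) and not in 2102Ep. TAP1 was 7.01, 7.03 and 6.97 in NTera-2 with siSOX2, against 7.27, 7.25 and 7.21 in NTera-2 control cells, and 8.24, 8.09 and 7.88 in 2102Ep with siSOX2, against 8.49, 8.33 and 8.24 in 2102Ep control cells. Its arrays lay lower under siSOX2 in each line, by -0.24 and -0.28, and missed the test (adjusted p of 0.296 and 0.105). In 2102Ep the separation was narrow, since the closest arrays were both 8.24 after rounding. PSMB8, an immunoproteasome subunit, was 5.38, 5.48 and 5.46 in NTera-2 with siSOX2, against 5.57, 5.76 and 5.58 in NTera-2 control cells, and 6.00, 5.63 and 5.95 in 2102Ep with siSOX2, against 5.78, 6.00 and 5.96 in 2102Ep control cells (-0.20 and -0.05, adjusted p of 0.478 and 0.865). NLRC5, the transactivator of MHC class I genes, changed by -0.06 and 0.02, and PSMB9, TAP2 and TAPBP by -0.10 to 0.29. TAP2 and TAPBP each had 3 probe sets, of which the brightest was used, and the dimmer ones did not all agree in sign (for TAP2 in NTera-2, -0.06 from the brightest, -0.16 and 0.40 from the others).

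A missed threshold does not show that a member was unchanged, so the intervals are the better measure. In NTera-2 the 95% intervals of all 35 members that did not pass lay inside a 2-fold change, and 31 lay inside 1.5-fold, with outermost bounds of -0.54 (IFIT1) and 0.92 (B2M). In 2102Ep this held for 34 of 34 and 30, with outermost bounds of -0.55 (MX1) and 0.83 (B2M).

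The difference between the responses (NTera-2 minus 2102Ep) was called for 0 members in either direction, where 0.668% of all genes were called higher and 0.989% lower. By the adjusted p alone, 0 members were higher and 2 lower (IFIT1 and TRIM22), beside 2.67% and 2.53% of all genes, and 4 members had an unadjusted p of 0.05 or less, as had 14.9% of all genes. IFIT1, at -0.99, lay at the edge of 2-fold and was called after median centring (-1.05) or repeated quantile normalization (-1.04), and without 2102Ep siSOX2 replicate 3 (-1.06), NTera-2 control replicate 2 (-1.02) or 3 (-1.09), or NTera-2 siSOX2 replicate 2 (-1.06). TRIM22 differed by -0.79 (adjusted p = 0.0493), which held in only 6 of 18 alternatives, with adjusted p up to 0.181. SOX2 itself remained at different levels, so the lines were not compared at an equal SOX2 mRNA signal.

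The second question was how the lines differ in this module under the same kind of siRNA. NTera-2 had about 9-fold more MX2 signal and over 2-fold more BST2 than 2102Ep, and less IFIT1, IFI16 and TAP1. The same 5 members were called among siSOX2 cells and among control cells. These comparisons share no arrays, but they share each gene's estimate of the spread and the same pair of lines and reagents. With siSOX2, 2 members were called higher in NTera-2 and 3 lower, where 4.61% and 3.03% of all genes were called. With the control siRNA the counts were also 2 and 3, where 4.49% and 3.28% of all genes were called. By the adjusted p alone, 3 were higher and 18 lower with siSOX2 (23.1% and 18.5% of all genes), and 4 higher and 14 lower with the control siRNA (21.0% and 21.5%), with 2 higher and 12 lower in both. The median log2 difference over the members was -0.245 with siSOX2 and -0.206 with the control siRNA, beside -0.0156 and -0.0639 over all genes. Of 38 members, 35 had the same sign in both.

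MX2, a GTPase of the nuclear envelope that blocks retroviral nuclear import, was 8.96, 8.89 and 9.12 in NTera-2 with siSOX2, against 5.78, 5.58 and 6.05 in 2102Ep with siSOX2. With the control siRNA it was 8.86, 9.19 and 8.82 in NTera-2, against 5.77, 5.89 and 5.64 in 2102Ep. The lines were far apart on every array and the siRNA made no visible difference within a line (0.03 and 0.04). The log2 difference was 3.19 in siSOX2 cells (SE 0.132, 9.10-fold, limma adjusted p = 8.99e-12) and 3.19 in control cells (9.13-fold, adjusted p = 1.06e-11). The 2102Ep signals of MX2 all lay below 6.73, the lower quartile of the gene means, so its fold sizes rest on dim values without a detection call. Its neighbour and paralog MX1, given above, differed between the lines by 0.05 with siSOX2 and 0.03 with the control siRNA, and its arrays overlapped.

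IFIT1 ran the other way. It was 5.24, 5.36 and 5.08 in NTera-2 with siSOX2, against 8.44, 8.34 and 8.17 in 2102Ep with siSOX2, a log2 difference of -3.09 (SE 0.120, 8.50-fold, adjusted p = 4.43e-12). With the control siRNA the difference was -2.09 (4.27-fold, adjusted p = 4.64e-10). The NTera-2 signals of IFIT1 were dim, as were those of IFIT2 and IFIT3 in both lines, so these sizes rest partly on dim values. The rest of the IFIT cluster was lower in NTera-2 on all arrays in both comparisons, by -0.75 (IFIT2), -0.48 (IFIT3) and -0.77 (IFIT5) with siSOX2, all past the adjusted p, and by -0.38, -0.66 and -0.76 with the control siRNA, where IFIT2 did not pass (adjusted p = 0.0949). With siSOX2, IFIT3 no longer passed without 2102Ep siSOX2 replicate 1 (-0.38, adjusted p = 0.0574) or NTera-2 siSOX2 replicate 3 (-0.32, adjusted p = 0.0615).

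IFI16, a nuclear sensor of foreign DNA, was 8.41, 8.18 and 8.46 in NTera-2 with siSOX2, against 9.97, 10.05 and 9.85 in 2102Ep with siSOX2 (-1.61, adjusted p = 2.73e-07). With the control siRNA it was 8.17, 8.20 and 8.28 in NTera-2, against 9.63, 9.97 and 9.15 in 2102Ep (-1.37, adjusted p = 1.75e-06). The lines did not overlap, although 2102Ep control replicate 3 was low for this gene. BST2 (tetherin), which holds budding virions at the cell surface, was 9.95, 9.53 and 9.76 in NTera-2 with siSOX2, against 8.45, 8.41 and 8.67 in 2102Ep with siSOX2 (1.24, 2.36-fold, adjusted p = 1.73e-06). With the control siRNA it was 9.40, 9.43 and 9.44 in NTera-2, against 8.28, 8.66 and 8.08 in 2102Ep (1.08, 2.12-fold, adjusted p = 7.47e-06). All NTera-2 arrays were the higher ones, and without 2102Ep control replicate 3 the difference in control cells was 0.95, under 2-fold. TAP1, given above, differed by -1.07 with siSOX2 (2.09-fold, adjusted p = 4.81e-07) and by -1.11 with the control siRNA (2.16-fold, adjusted p = 3.02e-07), and by -0.98 with siSOX2 once 2102Ep siSOX2 replicate 1 was left out. PSMB9, whose promoter window overlaps that of TAP1, differed by -0.25 and -0.21 and did not pass.

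**Figure D4:**
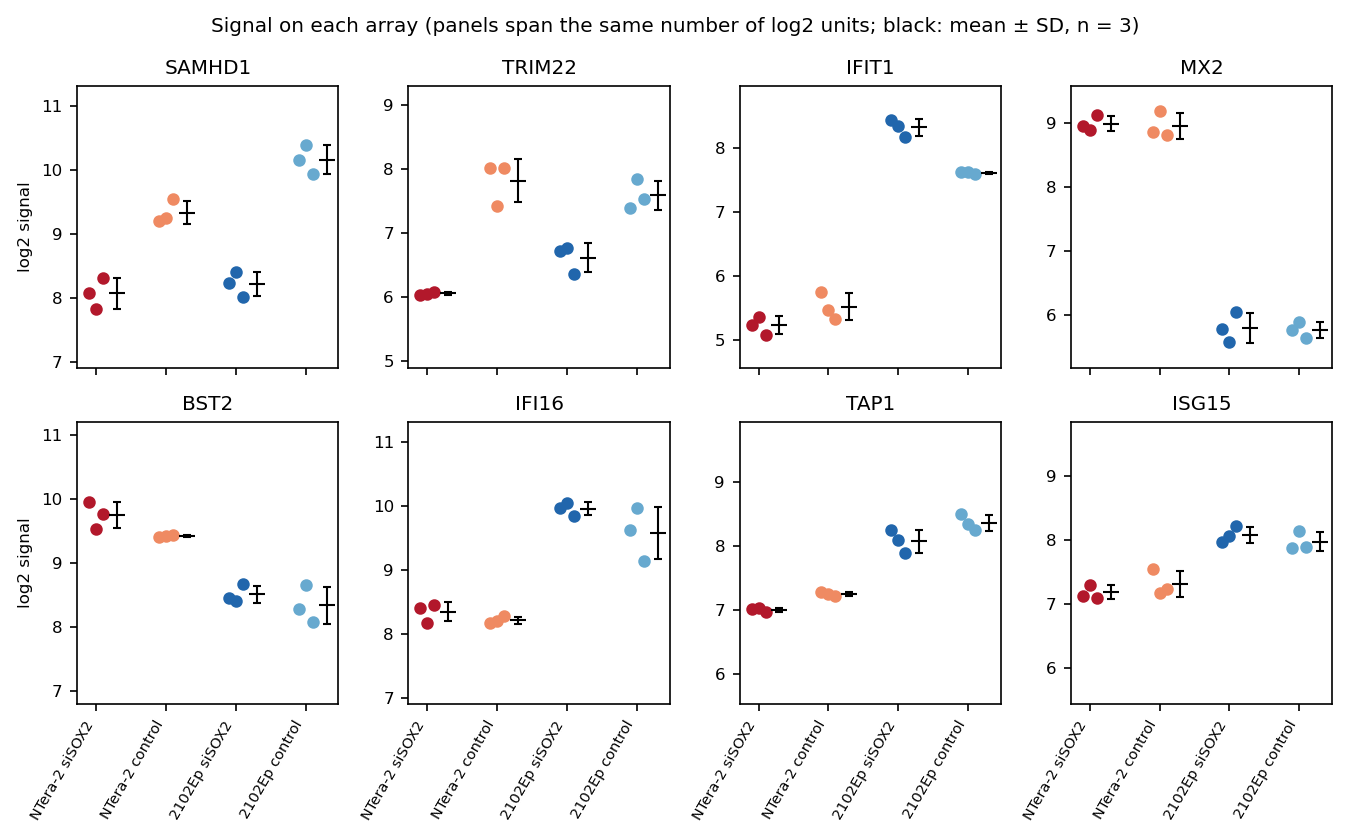
Log2 signal on each array (points) with the group mean ± SD (black, n = 3) for the 7 members called in any comparison and for ISG15, in NTera-2 siSOX2, NTera-2 control, 2102Ep siSOX2 and 2102Ep control cells. All panels span the same number of log2 units, and the lines separate for IFIT1, MX2, BST2, IFI16, TAP1 and ISG15. Within each line siSOX2 and control cells separate for SAMHD1 and TRIM22, as they do for IFIT1 in 2102Ep and BST2 in NTera-2. For TAP1 the groups separate only narrowly, with the closest 2102Ep arrays both at 8.24 after rounding, and its changes missed the test.

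Members with smaller line differences mostly lay lower in NTera-2. ISG15 differed by -0.90 with siSOX2 and -0.66 with the control siRNA, IFI6, a small mitochondrial protein, by -0.87 and -0.87, IRF1 by -0.68 and -0.68, IFITM1 by -0.67 and -0.55 and IFITM3 by -0.62 and -0.72, all past the adjusted p. IFI6 in control cells rested on uneven arrays, at 6.67, 7.67 and 7.50 in NTera-2 and 8.33, 8.36 and 7.77 in 2102Ep, and it crossed 2-fold (-1.07) without NTera-2 control replicate 2 or 2102Ep control replicate 3, but shrank to -0.57, still past the test, without the low NTera-2 control replicate 1. IRF3 differed by -0.40 and -0.38, and IFI35 by -0.49 and -0.35. Past the adjusted p in 1 comparison only were IRF7, PSMB8, TAPBP, TLR3, TRIM22 and IFIT2 (lower) and IRF9 (higher) with siSOX2, and IFIH1 and SAMHD1 (lower) and OAS1 and OAS3 (higher) with the control siRNA. SAMHD1 differed by -0.14 (adjusted p = 0.477) with siSOX2 and by -0.83 (adjusted p = 0.000205) with the control siRNA. B2M, EIF2AK2, MX1, ISG20, TRIM5 and GBP2 were among those that passed in neither comparison. The line difference of B2M in control cells was 0.15, and without 2102Ep control replicate 2 it was 0.45 and passed (adjusted p = 0.00852). Some of these passes were not stable: with siSOX2, TLR3 held in 7 of 19 alternatives (adjusted p up to 0.183), IRF9 in 14 of 19 (up to 0.0838) and IRF7 in 16 of 20 (up to 0.116), and with the control siRNA, OAS1 held in 14 of 19 (up to 0.131), IFI35 in 16 of 19 (up to 0.0829), IFIH1 in 17 of 19 (up to 0.0522) and OAS3 in 18 of 19 (up to 0.0533). Those alternatives include fits without an array of a group not compared, which leave the difference itself as it was. IRF9 lost its pass without any 1 of the 2102Ep siSOX2 arrays and without NTera-2 siSOX2 replicate 1 or 3. The TAPBP difference, which held in 12 of 20, came from the brightest of its 3 probe sets (-0.32, adjusted p = 0.0414) and missed the test when the sets were averaged (-0.35, adjusted p = 0.0613).

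**Figure D5:**
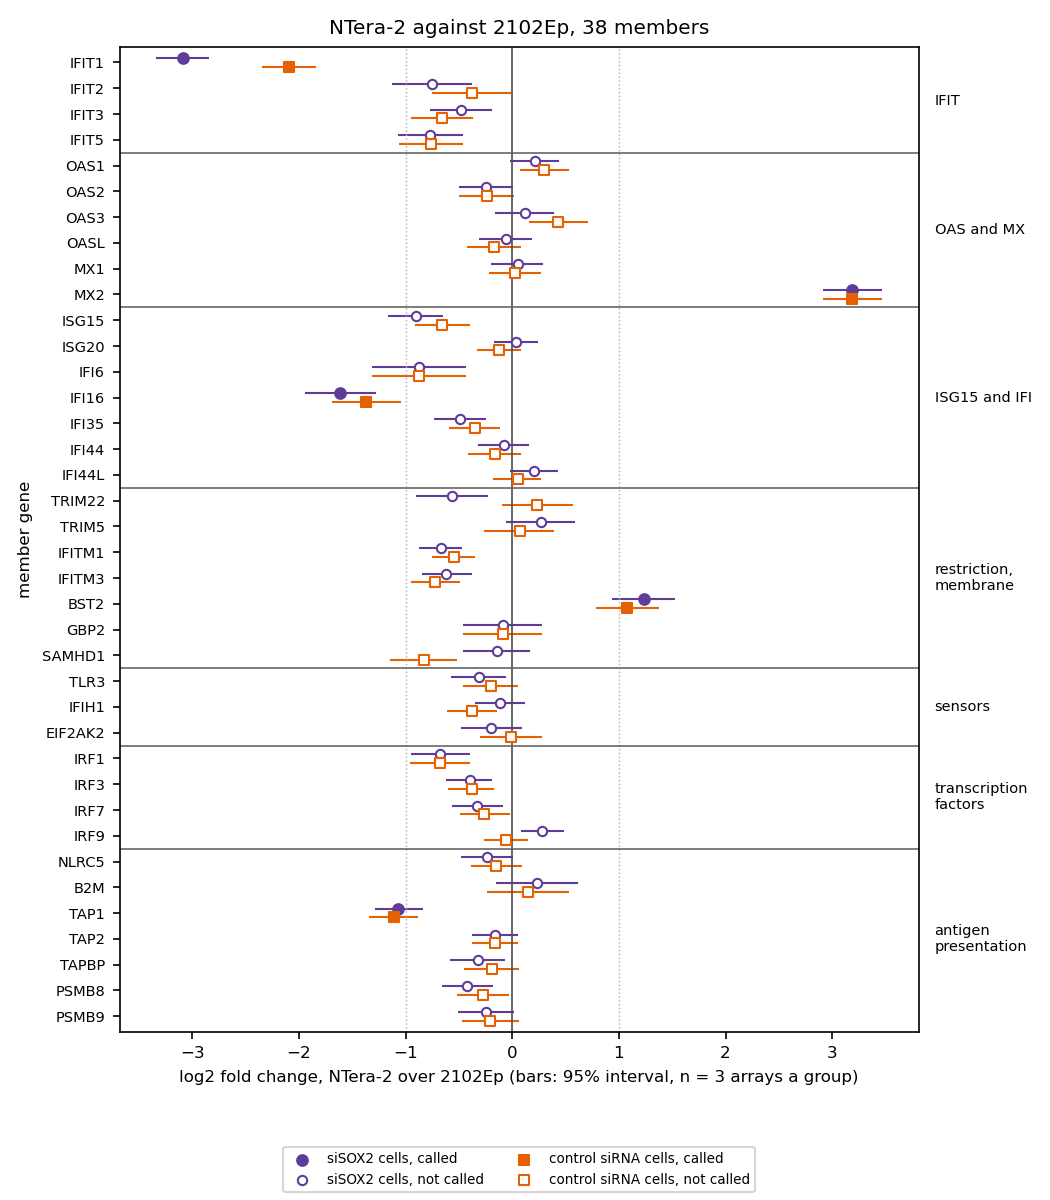
Log2 fold change of NTera-2 over 2102Ep (horizontal axis, with 95% intervals, 3 arrays a group) for the 38 measured members by role, in siSOX2 cells (purple circles) and control siRNA cells (orange squares), with filled symbols for called members. MX2 stands at 3.19 in both, BST2 at 1.24 and 1.08, and IFIT1 at -3.09 and -2.09.

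The wider pathway was read from further lists. HLA-B and HLA-C were covered only by probe sets of several genes. Of 17 interferon and receptor genes, 16 were measured. The interferons IFNA2, IFNA5, IFNA6, IFNA8, IFNB1, IFNE, IFNK, IFNW1 and IFNG gave signals between 3.40 and 5.39 on the 12 arrays, and IFNL1, a type III interferon, between 7.02 and 7.61. IFNB1, the interferon first made by infected cells, was 4.82, 4.75 and 4.97 in NTera-2 with siSOX2, against 4.52, 4.51 and 4.60 in NTera-2 control cells, and 4.89, 4.50 and 5.01 in 2102Ep with siSOX2, against 4.87, 4.54 and 4.50 in 2102Ep control cells. Its arrays separated in NTera-2 and overlapped in 2102Ep, and neither change passed (0.30 and 0.16, adjusted p of 0.291 and 0.549). Of the receptor chains, IFNAR1 changed by 0.23 and -0.07 under siSOX2, and IFNAR2 was higher in NTera-2 than in 2102Ep by 1.39 with siSOX2 and 1.22 with the control siRNA. Under siSOX2, 0 genes of the interferon, receptor signalling, other sensor, other interferon-stimulated, other antigen presentation and NF-kB target lists were called in either line by limma. By the adjusted p alone, which 2.96% of all genes passed higher and 1.98% lower in NTera-2 and 6.76% and 5.90% in 2102Ep, the interferon and receptor list had 1 gene higher and 0 lower in NTera-2 and 1 higher and 1 lower in 2102Ep, receptor signalling had 1 and 0 in NTera-2 and 3 and 0 in 2102Ep, and other antigen presentation genes had 0 and 0 in NTera-2 and 1 and 0 in 2102Ep. Among 37 other interferon-stimulated genes, 1 was higher and 2 lower in NTera-2 and 1 higher and 4 lower in 2102Ep by the adjusted p. Among 24 other sensors and adaptors, which include the cytoplasmic RNA helicase RIGI (0.27 and 0.28 under siSOX2, neither past the test), 1 was higher and 0 lower in NTera-2, and 6 higher and 2 lower in 2102Ep.

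SOCS3, an inhibitor of cytokine receptor signalling, was 7.15, 7.26 and 7.28 in NTera-2 with siSOX2, against 7.77, 7.40 and 7.48 in NTera-2 control cells, and 8.86, 8.85 and 8.78 in 2102Ep with siSOX2, against 8.28, 7.98 and 8.28 in 2102Ep control cells. It lay lower with siSOX2 in NTera-2 and higher in 2102Ep with no overlap (-0.32, adjusted p = 0.163, and 0.65, adjusted p = 0.000812). SOCS1, of the same family, rose by 0.81 in NTera-2 and 0.47 in 2102Ep (adjusted p of 0.000197 and 0.00876). PLSCR1, a phospholipid scramblase induced by interferon, fell by 0.58 in NTera-2 and by 0.67 in 2102Ep (adjusted p of 0.0122 and 0.00161). Between the lines, SOCS3 (-1.60 with siSOX2), SOCS1 (-1.05 with the control siRNA), the ISG15 ligase HERC5 (-1.43 with the control siRNA), PLSCR1 (-1.17 and -1.26) and LGALS3BP (-1.35 and -1.18) were called lower in NTera-2, as was the RNA sensing adaptor MAVS (-1.03 with siSOX2). The peptide-trimming enzyme ERAP1 (1.22 with the control siRNA), the MHC factor RFXAP (1.20 with siSOX2) and the DNA sensor AIM2 (1.68 with siSOX2) were called higher. The NF-kB targets IL6 (-2.46 and -2.31) and CCL2 (-2.48 and -2.41) were also lower in NTera-2, and of 9 measured genes of that list 7 were lower by the adjusted p with siSOX2 and 8 with the control siRNA, where 18.5% and 21.5% of all genes were lower. Of 9 measured leukocyte markers, 0 were called higher and 1 lower in NTera-2 in each comparison: LCP1, at 6.49 in NTera-2 and 11.38 in 2102Ep with siSOX2, and 6.23 and 11.12 with the control siRNA. PTPRC, which defines leukocytes, lay between 3.97 and 4.43 on all arrays. The summed linear signal of the list ran from 907 to 1000 in NTera-2 and from 3570 to 3770 in 2102Ep with siSOX2, and from 916 to 1010 in NTera-2 and from 2760 to 3510 in 2102Ep with the control siRNA. Most of that gap was LCP1, without which the sum ran from 817 to 923 in NTera-2 and from 919 to 1090 in 2102Ep with siSOX2, and from 840 to 925 in NTera-2 and from 939 to 1050 in 2102Ep with the control siRNA. Of 10 fibroblast markers, 3 were higher and 2 lower by the adjusted p in NTera-2 under siSOX2, with POSTN called lower (-1.69), and 2 higher and 1 lower in 2102Ep, and the POSTN responses differed (-1.84, called). COL1A2 was called lower in NTera-2 than in 2102Ep with siSOX2 (-1.22) and with the control siRNA (-1.49). Of 6 endothelial markers, 0 were called under siSOX2. By the adjusted p, 0 of them were higher and 1 lower in NTera-2, and 1 higher and 2 lower in 2102Ep. Over all genes, 2.96% were higher and 1.98% lower by this measure in NTera-2, and 6.76% and 5.90% in 2102Ep, which applies to the fibroblast markers as well. Between the lines TEK was called higher in NTera-2 (2.08 with siSOX2, 1.32 with the control siRNA) and CDH5 (-1.25) and PECAM1 (-1.18) lower with the control siRNA. Among the undifferentiated markers, PODXL was called higher in NTera-2 with the control siRNA (1.06). The part of these markers in the members' differences was not tested.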

How the data were processed

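Total RNA from 12 cultures was hybridised to Affymetrix Human Gene 1.0 ST arrays. The authors deposited log2 values made by robust multi-array average (background correction, quantile normalization, median polish), 1 per probe set. The log base is not stated in the sources used here and was taken from the range of the values, 1.57 to 14.98. Depth has no counterpart on arrays, where the number of arrays limits the precision (median SE 0.121 on the log2 scale). The submitters' processing notes name limma.

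Of 32321 probe sets, 19158 were assigned to 1 gene, 1388 to several and 11775 to none. The 1-gene sets gave 18404 genes, 18376 of which matched RefSeq symbols. Where a gene had several sets (637 genes), the brightest was used. One model over the 4 groups of 3 arrays was fitted with limma 3.58.1 in R 4.3.3 (lmFit, contrasts.fit, eBayes), with 5 contrasts and Benjamini-Hochberg adjustment over all genes. It was tested on simulated data. An exact permutation test of 3 arrays against 3 cannot go below p = 0.1 and was not used for single genes. The replicates are labelled biological, and p-values measure the spread between these cultures.

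The members and lists were chosen with earlier results of these data known. Values on every array were given for SOX2, for every member called in any contrast and for ISG15, MX1, OAS1, TLR3, IFIH1, EIF2AK2, IRF9, B2M and PSMB8 whatever their values. Genes of other lists, markers included, were named where called in a contrast, with IFNB1, IFNAR1 and RIGI in any case. LIN28A, SALL4, DNMT3B, PTPRC and the interferons other than IFNB1 were not called and were named outside this rule. SOCS3 array values were added after its values were seen. Alternatives were a replicate block, the compared groups alone, a filter on dim genes, median centring, repeated quantile normalization, trend and robust eBayes, the mean over probe sets, all probe sets, no fold threshold and leaving out each of the 12 arrays. A fit without an array of a group not compared can change the spread and the adjusted p, but not the log2 change. Promoters were read from RefSeq with Python 3.11.15.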

Additional observations from a re-analysis of the deposited data

Results flagged for a closer look

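The test of the difference itself (NTera-2 minus 2102Ep, limma, adjusted over 18404 genes) was read for a chosen set. This set held the members, SOX2, IFNB1, IFNAR1, RIGI and genes of the other pathway lists called in a contrast, without the markers. In it, the responses of 4 genes to siSOX2 differed between the lines by the adjusted p. Over all genes, 2.67% passed upwards and 2.53% downwards. Outside the set, the interferon and receptor list had 1 pass upwards, and the other sensor list had 1 upwards and 1 downwards. For IFIT1 the difference was -0.99 (adjusted p = 0.00136), with log2 changes of -0.29 in NTera-2, where arrays overlapped at dim signals, and 0.71 in 2102Ep, where all siSOX2 arrays were the higher ones. For SOCS3, an inhibitor of cytokine receptor signalling, it was -0.97 (adjusted p = 0.00136), with changes of -0.32 and 0.65 and no overlap in either line. For TRIM22 it was -0.79 (adjusted p = 0.0493), with changes of -1.76 and -0.97 in the same direction, and it held in only 6 of 18 alternatives (adjusted p = 0.0748 with the replicate block and up to 0.181). For SOX2 it was 2.49 (adjusted p = 4.87e-08), with changes of -0.64 and -3.14. The SOX2 mRNA signal left and the transfection reagent differ between the lines, and their part in these differences was not tested. Groups of 3 arrays were not searched for single outlying arrays.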

How the results depend on the processing

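Over the members and the 5 contrasts, 3534 of 3622 values kept their side of the adjusted p, 63 lost a pass and 25 gained one. These counts include fits without an array of a group not compared. The lost and gained passes fell on 20 genes. No value past the adjusted p changed direction. Among the values that kept their side, 139 changed direction, all of them past the test in neither fit. Without genes below the median signal, where only 10 members remained, NTera-2 had 1 member lower under siSOX2, and the lines differed by 1 higher and 1 lower with siSOX2 and by 1 higher and 1 lower with the control siRNA. TRIM22, IFIT1, MX2 and TAP1, called in the main fit, lie below that median (8.03) and were not tested there. The share of all genes called in that fit is not given here. With no fold threshold, 2102Ep had 2 higher and 2 lower under siSOX2, the lines differed by 3 higher and 18 lower with siSOX2 and by 4 higher and 14 lower with the control siRNA, and 2 responses differed downwards. After median centring, 1 response (IFIT1) differed, as did 1 after repeated quantile normalization. Median centring moved all genes by -0.05 to 0.03.

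Leaving out 1 array at a time gave 1 to 2 members lower in 2102Ep under siSOX2, 1 to 2 higher in NTera-2 than in 2102Ep with the control siRNA and 0 to 1 differing responses. The NTera-2 counts under siSOX2 stayed at 0 higher and 2 lower in all 12 such fits, though leaving out a 2102Ep array cannot change the NTera-2 log2 changes. Same-numbered replicates were not paired by the labels. Their deviations from the group means correlated at -0.249, -0.206 and 0.136 in NTera-2, and weakly and positively in 2102Ep (0.0652, 0.179 and 0.128). Between the lines these correlations ran from -0.377 to 0.268. With the replicate block, counts of called members were the same in every comparison (0 and 2 in NTera-2, 0 and 1 in 2102Ep under siSOX2), and TAPBP between siSOX2 lines (adjusted p = 0.0524) and the TRIM22 response difference (0.0748) no longer passed. The fit of only the groups compared does not apply to the difference of responses.

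With 3 arrays a group, 1 siRNA and no untransfected cells, changes under about 1.5-fold were often not resolved, and the files give no detection call for the dim genes.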
